A study of Mus musculus with 4 samples.

Results

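The 31 genes described here encode the enzymes and regulators with which a mammalian cell makes cholesterol and fatty acids. They were taken by symbol from the 32285 genes of both expression tables, and all 31 were found. They comprise 4 regulators (Srebf1, Srebf2, Scap and Insig1), 7 enzymes of the early mevalonate pathway, 9 enzymes of the sterol branch, the sterol carrier Stard4, 4 enzymes of fatty acid synthesis, and 6 desaturases and elongases. Their levels were compared in tumours of Sun1_KO and Sun1_WT CT26 cells, a mouse colon cancer line that grows in BALB/c mice, the strain it came from. The SUN1 protein sits in the inner nuclear membrane and helps to couple the nucleus to the cytoskeleton. Cells of either genotype were placed under the skin of one flank of BALB/c mice, and tumours were taken at day 14 and dissociated. Nuclei then gave 1 expression and 1 accessibility library per genotype, 4 libraries in all. The part of Sun1 deleted, whether the knockout line is 1 clone, how many tumours were pooled, and the age of the mice were not stated in the labels.

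Cholesterol synthesis starts from acetyl-CoA, runs through mevalonate to farnesyl diphosphate, and from squalene onward is committed to sterols, whereas fatty acid synthesis turns acetyl-CoA into malonyl-CoA and then palmitate, which is lengthened and desaturated. SREBP-2, made from Srebf2, is known chiefly for driving the sterol genes, and SREBP-1, made from Srebf1, for driving the fatty acid genes. Both are held in the endoplasmic reticulum by the escort protein SCAP and by INSIG while sterols are plentiful, and are cut free and enter the nucleus when sterols fall. In promoters they act beside NF-Y, which reads CCAAT, and Sp1, which reads a GC box. Macrophages run the same programme for membrane growth and balance it against LXR, which senses oxysterols and drives cholesterol export.

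Promoter sequences, 250 bases before to 50 bases after each start site, were held for 24 of the 31 genes in the RefSeq table of build GRCm38.p6. The sterol response element of the textbook form TCACNCCAC, searched on both strands, occurred in 1 of these 24 genes, Hmgcs1, against 1.44% of all genes with a promoter. The E-box CACGTG, which SREBP-1 and other basic helix-loop-helix factors can read, occurred in 6 of 24 (Dhcr7, Elovl5, Hsd17b7, Insig1, Sc5d and Scap), against 8.09% of genes. CCAAT and the GC box GGGCGG each occurred in 19 of 24, against 41.1% and 38.2% of genes. No motif overlapped another of a different kind. A match is only a run of letters. The stretches below show 100 bases around the sterol element of Hmgcs1 and around the E-box of Insig1, which encodes the retention protein, of the sterol enzymes Hsd17b7 and Sc5d, and of the elongase Elovl5, which had the highest ratio among the genes compared in myeloid-gated nuclei. Capitals mark the sterol element or E-box, all are written 5′ to 3′ on the gene's strand, and they lie at chr13:119690169-119690268 (plus strand, Hmgcs1), chr5:28071266-28071365 (plus, Insig1), chr1:169969294-169969393 (minus, Hsd17b7), chr9:42264344-42264443 (minus, Sc5d) and chr9:77917159-77917258 (plus, Elovl5).
Hmgcs1: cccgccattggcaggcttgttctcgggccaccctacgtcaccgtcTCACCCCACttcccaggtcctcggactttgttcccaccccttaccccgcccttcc
Insig1: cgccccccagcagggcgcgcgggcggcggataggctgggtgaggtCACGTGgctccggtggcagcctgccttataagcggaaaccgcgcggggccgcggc
Hsd17b7: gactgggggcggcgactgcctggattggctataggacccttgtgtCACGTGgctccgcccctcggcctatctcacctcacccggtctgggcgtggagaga
Sc5d: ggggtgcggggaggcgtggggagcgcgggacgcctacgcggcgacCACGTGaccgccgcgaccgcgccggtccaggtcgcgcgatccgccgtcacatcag
Elovl5: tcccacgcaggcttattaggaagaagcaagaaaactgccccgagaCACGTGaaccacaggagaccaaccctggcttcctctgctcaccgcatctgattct
Counted from the start site as base 0, the Hmgcs1 element spans -137 to -129, with a CCAAT box at -176 to -172 and a GC box at -92 to -87 in the same stretch, both on the opposite strand. The E-box spans -101 to -96 in Insig1, -98 to -93 in Sc5d, -143 to -138 in Hsd17b7 and -161 to -156 in Elovl5.

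The expression libraries held 2404 nuclei and 35471291 UMIs in Sun1_KO and 3455 nuclei and 53707675 UMIs in Sun1_WT. A UMI is a molecular tag that marks 1 captured RNA molecule. Tumour-gated nuclei were picked by CT26 markers such as Hmga2 and Tead1 and by a low share of leukocyte marker UMIs. They numbered 1364 in Sun1_KO and 2543 in Sun1_WT, with a median of 16533.5 UMIs in Sun1_KO and 16587 in Sun1_WT. Myeloid-gated nuclei, picked by markers such as Lyz2, C1qa and Mrc1, numbered 311 in Sun1_KO and 329 in Sun1_WT, with a median of 4578 UMIs in Sun1_KO and 4792 in Sun1_WT. The 7 tumour markers summed in the tumour gate to 5670 CPM (a gene's UMIs per 1000000 UMIs) in Sun1_KO and 4000 CPM in Sun1_WT, and the 13 myeloid markers in the myeloid gate to 14190 CPM in Sun1_KO and 20490 CPM in Sun1_WT. Most of the tumour sum was Hmga2, at 4469 CPM in Sun1_KO and 2827 CPM in Sun1_WT. Of the 7 tumour markers, 5 were higher and 2 lower in Sun1_KO. Adipocyte markers gave 8 UMIs in the tumour gate of each library, with Adipoq at 0. Ptprc, the pan-leukocyte marker, stood there at 14.8 CPM in Sun1_KO and 7.02 CPM in Sun1_WT. Mitochondrial genes took 11.3% of UMIs in Sun1_KO and 6.93% in Sun1_WT tumour-gated nuclei, and were left out of the totals. Of the cell barcodes, 12 occurred in both libraries, 9 of them in gated nuclei. Sun1 itself stood at 64.5 CPM in Sun1_KO (95% interval 61.3 to 67.8) and 104 CPM in Sun1_WT tumour-gated nuclei (101 to 107), and at 38.4 CPM in Sun1_KO and 34.6 CPM in Sun1_WT myeloid-gated nuclei. A remaining level of transcript checks the label only in part, since the deleted part of the gene is not given.

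With 1 library per genotype there is no test between genotypes. Each value is a sum of UMIs over gated nuclei with an exact 95% Poisson interval, each ratio is Sun1_KO over Sun1_WT on the log2 scale, after 0.5 UMI was added to each sum, with an exact conditional binomial interval, and these intervals cover counting error only, not differences between mice, tumours or preparations. Levels are CPM of nuclear RNA and are not per gene length, so they are compared for 1 gene at a time. Fewer nuclei with a transcript and less transcript per nucleus are not separated by such sums.

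In tumour-gated nuclei, summed fatty acid transcripts stood higher and summed early mevalonate transcripts, mostly through Fdps, lower in Sun1_KO than in Sun1_WT. The 10 fatty acid genes summed to 1467 CPM in Sun1_KO and 1176 CPM in Sun1_WT. Scd2 was the largest part, at 583 CPM in Sun1_KO and 505 CPM in Sun1_WT. All 10 ratios were above 0, but 4 of 10 with TMM factors (Acss2, Acaca, Scd1 and Elovl6) and 8 of 10 with median-of-ratios factors, which rescale the libraries by the bulk of genes. Without such factors, 8152 of all 13076 genes compared also had a ratio above 0. The 7 early mevalonate genes summed to 218 CPM in Sun1_KO and 281 CPM in Sun1_WT. Most of that difference lay in Fdps, at 60.5 CPM in Sun1_KO and 115 CPM in Sun1_WT. Of the 7 ratios 3 were above 0, against 0 of 7 with TMM factors. The 9 sterol branch genes summed to 395 CPM in Sun1_KO and 393 CPM in Sun1_WT, a log2 ratio of 0.0069 that became -0.20 with TMM factors. All 31 genes had at least 100 UMIs over both libraries, the minimum for a comparison.

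Only 1 of the 31 genes was at least 1.5-fold lower in Sun1_KO tumour-gated nuclei, Fdps, and 1 was at least 1.5-fold higher, Elovl6, where 9.38% of the 13076 genes compared were that much lower and 12.1% that much higher. After each nucleus was thinned to 1000 UMIs, 21 of the 31 could be compared, and 2 of these were that much lower and 5 that much higher, where 8.55% of all genes were lower and 9.61% higher. How common large differences were among these genes, set beside all genes, thus depended on this setting. The median log2 ratio of the 31 was 0.075, beside 0.15 for all genes compared, and 14 of the 31 stood above the all-gene median. That median depends on scaling. With TMM factors it was -0.062 for all genes and -0.13 for the 31, and 16.4% of genes were then at least 1.5-fold lower and 6.03% higher. With median-of-ratios factors the 2 medians were 0.00061 and -0.071. A gene's distance to the all-gene median is the same under these 3 scalings, so its place is given against that median.

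**Figure D1:**
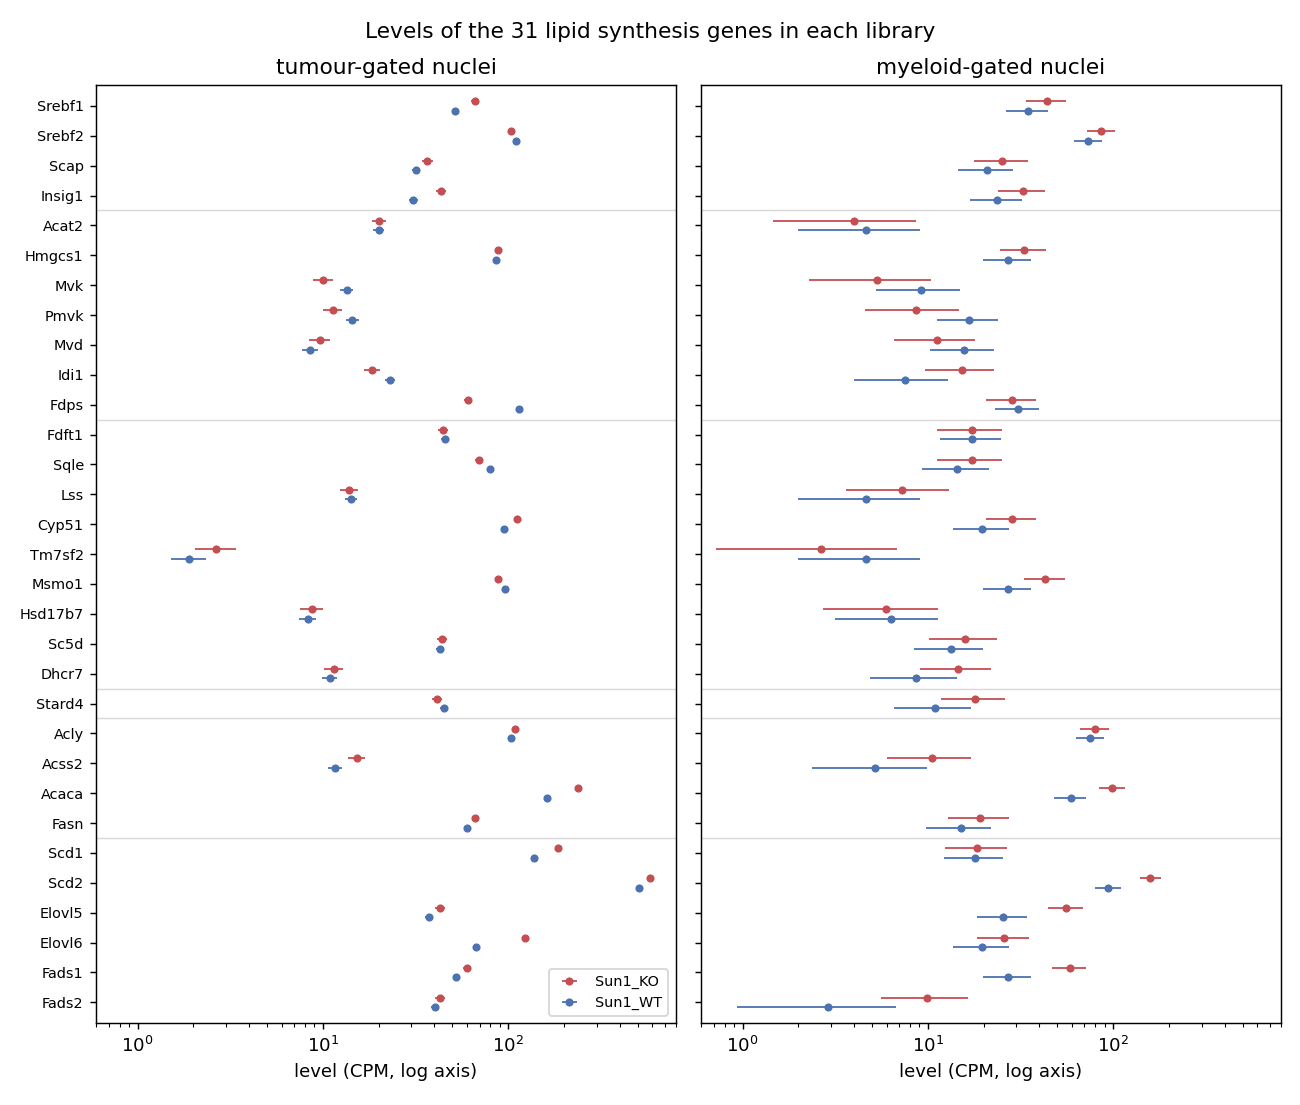
Level of each of the 31 genes (CPM, log axis) in Sun1_KO and Sun1_WT tumour-gated nuclei at left and myeloid-gated nuclei at right, with exact 95% Poisson intervals as bars and genes ordered by role. In tumour-gated nuclei Fdps lies at 60.5 CPM in Sun1_KO and 115 CPM in Sun1_WT, and Elovl6 at 124 CPM in Sun1_KO and 66.8 CPM in Sun1_WT.

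**Figure D2:**
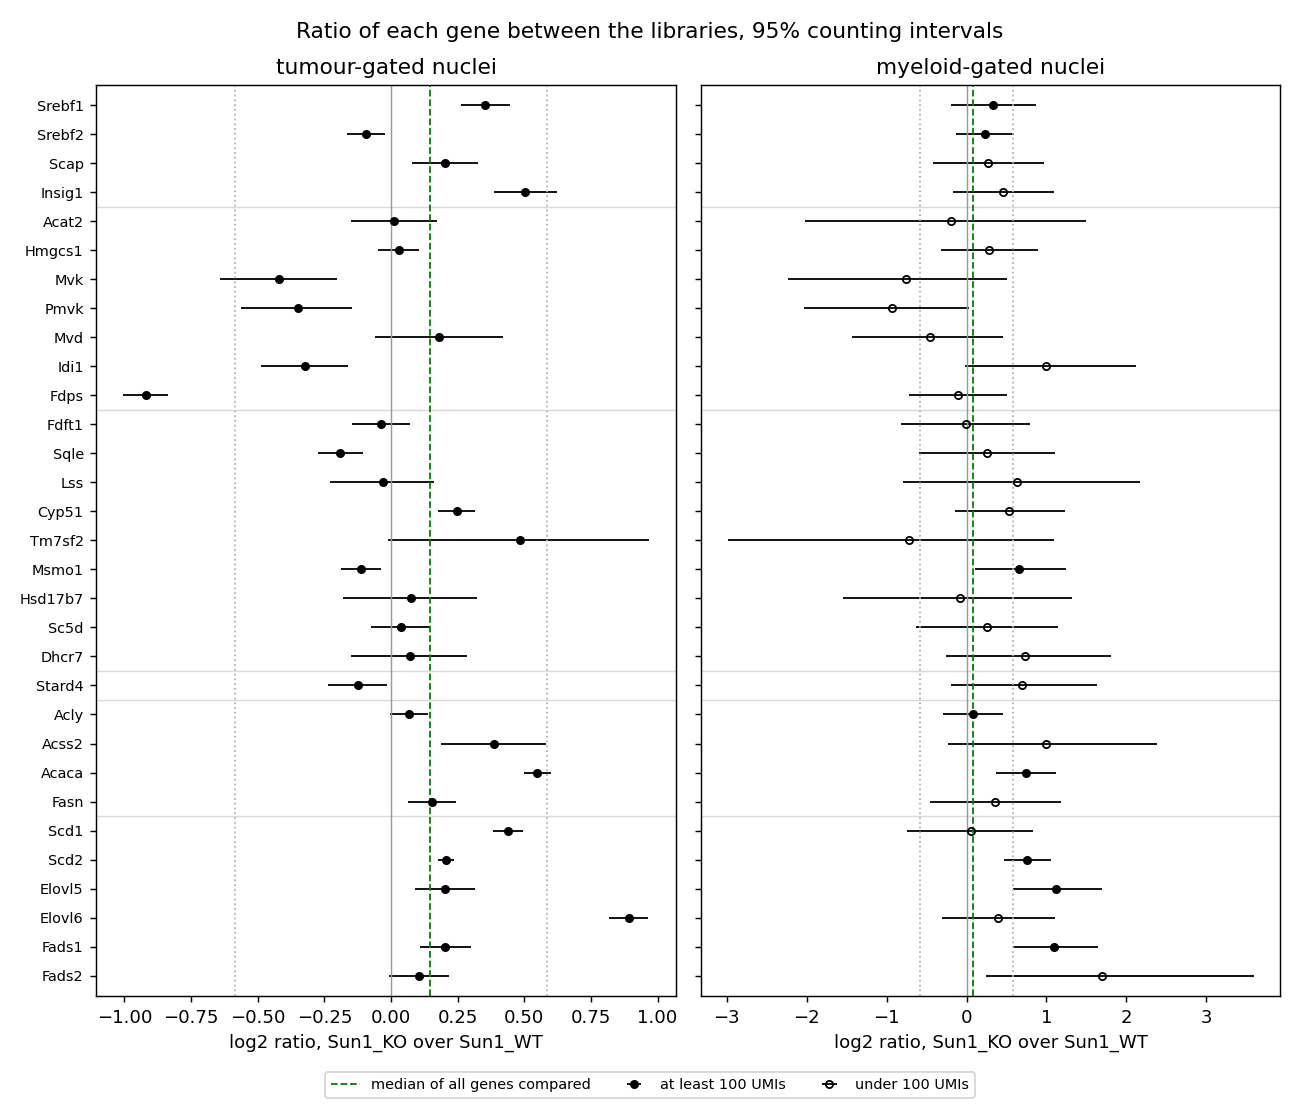
Log2 ratio of each gene, Sun1_KO over Sun1_WT, in tumour-gated and myeloid-gated nuclei, with exact 95% intervals for counting error as bars, open points for genes under 100 UMIs, a dashed line at the median of all genes compared and dotted lines at 1.5-fold. Fdps at -0.92 and Elovl6 at 0.89 lie past the dotted lines in tumour-gated nuclei, and the horizontal scales of the panels differ.

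Among the regulators, Insig1, which encodes the sterol-dependent anchor of SCAP and is itself a known SREBP target, stood at 43.6 CPM in Sun1_KO (41.0 to 46.3) and 30.7 CPM in Sun1_WT tumour-gated nuclei (29.1 to 32.4). Its log2 ratio was 0.50 (0.39 to 0.62). Srebf1 stood at 66.1 CPM in Sun1_KO and 51.7 CPM in Sun1_WT, a log2 ratio of 0.35 (0.26 to 0.45). Both had intervals wholly above the all-gene median. Srebf2 stood at 103 CPM in Sun1_KO and 110 CPM in Sun1_WT, a log2 ratio of -0.093 (-0.16 to -0.024) and 0.24 below the all-gene median. Scap, the escort of both proteins, stood at 36.6 CPM in Sun1_KO and 31.8 CPM in Sun1_WT, with a log2 ratio of 0.20 (0.080 to 0.33) that became -0.0056 with TMM factors and -0.21 in a stricter gate that allows no myeloid or pan-leukocyte marker UMI. The regulators therefore did not share a direction.

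In the early mevalonate pathway, Fdps had the lowest ratio of the 31 genes. It encodes farnesyl diphosphate synthase, whose product feeds squalene, dolichol, ubiquinone and protein prenylation. It gave 1462 UMIs or 60.5 CPM in Sun1_KO (57.5 to 63.7) and 5077 UMIs or 115 CPM in Sun1_WT (112 to 118), a log2 ratio of -0.92 (-1.01 to -0.84). After each nucleus was thinned to 1000 UMIs, 4.05% of Sun1_KO tumour-gated nuclei held an Fdps UMI (3.06% to 5.24%, exact binomial) and 8.99% of Sun1_WT nuclei did (7.91% to 10.2%), while without thinning the shares were 50.2% in Sun1_KO and 61.7% in Sun1_WT. A share of nuclei at 1000 UMIs largely follows the summed level, so it is not a separate measure of the difference.

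Mvk and Pmvk, the kinases that phosphorylate mevalonate in turn, and Idi1, the isomerase that supplies dimethylallyl diphosphate, also had intervals below 0. Mvk stood at 10.0 CPM in Sun1_KO and 13.4 CPM in Sun1_WT, a log2 ratio of -0.42 (-0.64 to -0.20). Pmvk stood at 11.3 CPM in Sun1_KO and 14.4 CPM in Sun1_WT, with -0.35 (-0.56 to -0.15). Idi1 stood at 18.4 CPM in Sun1_KO and 23.1 CPM in Sun1_WT, with -0.32 (-0.49 to -0.16). The other 3 enzymes had intervals that spanned 0. Acat2, which joins acetyl-CoA units, had 0.012 and Hmgcs1, the synthase before mevalonate, 0.030, and Mvd, the decarboxylase, had 0.18 (-0.061 to 0.42). Of the 7 early mevalonate genes, 1, Mvd, stood above the all-gene median.

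The sterol branch held smaller differences of both signs. Cyp51, the lanosterol demethylase, stood at 112 CPM in Sun1_KO and 94.4 CPM in Sun1_WT, a log2 ratio of 0.25 (0.18 to 0.32). Sqle, which oxidises squalene, stood at 69.4 CPM in Sun1_KO and 79.2 CPM in Sun1_WT, with a log2 ratio of -0.19 (-0.28 to -0.11). Msmo1, which starts removal of methyl groups from the sterol ring, stood at 88.5 CPM in Sun1_KO and 95.8 CPM in Sun1_WT, with -0.11 (-0.19 to -0.038). Fdft1 (squalene synthase), Lss (lanosterol synthase), Hsd17b7, Sc5d and Dhcr7 had log2 ratios between -0.037 and 0.075, and their intervals all spanned 0. Tm7sf2, a sterol reductase, had the fewest UMIs of the 31 genes, 64 in Sun1_KO and 84 in Sun1_WT, and a log2 ratio of 0.49 whose interval, -0.010 to 0.97, was too wide to give a direction. Stard4, which carries cholesterol between membranes, stood at 41.3 CPM in Sun1_KO and 45.1 CPM in Sun1_WT, a log2 ratio of -0.12 (-0.24 to -0.014). Over the 16 pathway enzymes of both sterol groups the median was -0.0093, and 3 of the 16 stood above the all-gene median.

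Fatty acid synthesis lay on the other side. Acaca, acetyl-CoA carboxylase, which makes malonyl-CoA and sets the pace of the pathway, stood at 238 CPM in Sun1_KO (232 to 244) and 163 CPM in Sun1_WT (159 to 166). Its log2 ratio was 0.55 (0.50 to 0.60). Acss2, which makes acetyl-CoA from acetate, stood at 15.2 CPM in Sun1_KO and 11.7 CPM in Sun1_WT, with 0.38 (0.19 to 0.58). Fasn, the fatty acid synthase, stood at 66.6 CPM in Sun1_KO and 59.8 CPM in Sun1_WT, a log2 ratio of 0.15 (0.064 to 0.24), at the all-gene median and below 0 with TMM factors. Acly, which makes acetyl-CoA from citrate, had 0.068 (-0.0025 to 0.14), also below 0 with TMM factors. Acaca and Acss2 had intervals above the all-gene median, and those of Fasn and Acly did not lie above it.

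Elovl6, which lengthens palmitate to stearate, had the highest ratio of the 31 genes in these nuclei. It gave 2990 UMIs or 124 CPM in Sun1_KO (119 to 128) and 2956 UMIs or 66.8 CPM in Sun1_WT (64.4 to 69.2), a log2 ratio of 0.89 (0.82 to 0.96). After thinning, 9.86% of Sun1_KO nuclei held an Elovl6 UMI (8.33% to 11.6%) and 6.47% of Sun1_WT nuclei did (5.54% to 7.50%). The unthinned shares were 64.7% in Sun1_KO and 47.0% in Sun1_WT. Scd1, the stearoyl-CoA desaturase that makes oleate, stood at 186 CPM in Sun1_KO (180 to 191) and 137 CPM in Sun1_WT (134 to 140), a log2 ratio of 0.44 (0.38 to 0.49). Its neighbour and paralogue Scd2 stood at 583 CPM in Sun1_KO and 505 CPM in Sun1_WT, with 0.21 (0.18 to 0.24). Elovl5, Fads1 and Fads2, which lengthen and desaturate polyunsaturated fatty acids, had log2 ratios of 0.20, 0.20 and 0.10, near the all-gene median. With TMM factors Scd2, Elovl5, Fads1 and Fads2 had ratios below 0, whereas Scd1 and Elovl6 stayed above 0.

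Over all genes, the ratio went with gene length. Among the genes compared, 94.1% had a length in the RefSeq table, and the median log2 ratio was -0.086 in the shortest tertile, 0.15 in the middle tertile and 0.29 in the longest tertile. The members did not follow that order, with medians of 0.20 in the shortest, 0.012 in the middle and 0.20 in the longest tertile. The shortest tertile held Fdps, the lowest member, as well as Insig1 (0.50) and Scd1 (0.44). Against their own tertile, 7 of 9 short, 3 of 15 middle and 3 of 7 long members stood above the median. When tumour-gated nuclei were divided into tertiles by UMIs, Fdps had log2 ratios of -0.62, -0.86 and -1.01 from shallow to deep, Elovl6 1.18, 0.83 and 0.86, and Acaca 0.49, 0.59 and 0.54. Across the 3 tertiles, 2 members were below 0 in each (Fdps and Pmvk), 13 were above 0 in each, and 16 took both signs, among them Mvk, Idi1, Sqle and Msmo1. The all-gene medians were themselves above 0, at 0.13, 0.17 and 0.13 from shallow to deep, and signs were not counted over all genes. What part length and depth have in the ratios was not tested.

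Myeloid-gated nuclei gave far fewer UMIs, and 8 of the 31 genes reached 100 UMIs, so 23 could not be compared there by size. The 5 genes at least 1.5-fold higher in Sun1_KO were Elovl5, Fads1, Scd2, Acaca and Msmo1, and 0 were that much lower, where 5.66% of the 5826 genes compared were that much higher and 4.96% lower. With TMM or median-of-ratios factors 4 were that much higher, where 3.64% of all genes compared were with TMM and 3.54% with median-of-ratios factors. A gene with few UMIs passes the minimum more easily when 1 library is high, so this count does not speak for all 31 genes.

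Elovl5 stood at 55.6 CPM in Sun1_KO (44.4 to 68.8; 84 UMIs) and 25.4 CPM in Sun1_WT myeloid-gated nuclei (18.5 to 34.1; 44 UMIs), a log2 ratio of 1.12 (0.59 to 1.69). Fads1, the delta-5 desaturase, stood at 58.3 CPM in Sun1_KO (88 UMIs) and 27.1 CPM in Sun1_WT (47 UMIs), with 1.10 (0.58 to 1.65). These 2 genes act in the same route to polyunsaturated fatty acids. Scd2 stood at 159 CPM in Sun1_KO and 94.1 CPM in Sun1_WT, with 0.75 (0.46 to 1.05). Acaca stood at 98.6 CPM in Sun1_KO and 58.9 CPM in Sun1_WT, with 0.74 (0.37 to 1.12). Msmo1 stood at 43.0 CPM in Sun1_KO and 27.1 CPM in Sun1_WT, with 0.66 (0.10 to 1.24). Of the other genes compared, Acly had 0.082 (-0.29 to 0.45), Srebf1 0.33 (-0.19 to 0.86) and Srebf2 0.23 (-0.13 to 0.60), all with intervals that spanned 0.

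Of the 23 genes under the minimum, Fads2 was the only one whose interval excluded 0, with 15 UMIs in Sun1_KO and 5 in Sun1_WT and a log2 ratio of 1.69 (0.25 to 3.60). Fdps gave 43 UMIs in Sun1_KO and 53 in Sun1_WT, a log2 ratio of -0.10 (-0.72 to 0.50). That interval does not reach the tumour ratio of -0.92 but holds the -0.62 of the shallow tertile of tumour-gated nuclei. Insig1 gave 49 UMIs in Sun1_KO and 41 in Sun1_WT, with 0.45 (-0.17 to 1.09), and Scap 38 in Sun1_KO and 36 in Sun1_WT, with 0.27 (-0.42 to 0.97). Differences of the size seen in most tumour genes were not detectable at this depth.

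The myeloid libraries also differed in their markers. Of the 13 myeloid markers, 11 were lower and 2 higher in Sun1_KO, with Lyz2 at 1968 CPM in Sun1_KO and 4479 CPM in Sun1_WT, and none was at 0. Tumour markers summed to 105 CPM in Sun1_KO and 111 CPM in Sun1_WT myeloid-gated nuclei, a sum that the gate limits, with Hmga2 at 44.4 CPM in Sun1_KO and 38.7 CPM in Sun1_WT, beside 4469 CPM in Sun1_KO and 2827 CPM in Sun1_WT in the tumour gate. Endothelial markers summed to 158 CPM in Sun1_KO and 125 CPM in Sun1_WT, all 5 higher in Sun1_KO. T cell markers there summed to 38.4 CPM in Sun1_KO and 18.5 CPM in Sun1_WT, 6 of 8 higher in Sun1_KO, and dendritic cell markers to 15.9 CPM in Sun1_KO and 4.62 CPM in Sun1_WT, 3 of 3 higher. In the tumour gate, 11 of the 13 myeloid markers were higher in Sun1_KO and summed to 151 CPM, against 115 CPM in Sun1_WT. The fibroblast and pericyte markers there summed to 163 CPM in Sun1_KO and 122 CPM in Sun1_WT, all 5 higher in Sun1_KO, and the T cell markers to 14.2 CPM in Sun1_KO and 8.04 CPM in Sun1_WT, all 8 higher. The part of these differences in the lipid gene ratios was not tested.

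Within a library, most of the 31 genes stood higher in tumour-gated than in myeloid-gated nuclei. The interval of the log2 ratio, tumour over myeloid, lay above 0 for 21 genes in Sun1_KO and 24 in Sun1_WT, and below 0 for 1 gene in Sun1_KO (Elovl5, -0.38) and 2 genes in Sun1_WT (Mvd, -0.90, and Tm7sf2, -1.36). Such intervals were not counted over all genes, so these numbers cannot be set beside a general share. A gene was counted by fold only if its myeloid UMIs, plus its tumour level scaled to the myeloid total, came to at least 100. By this rule 16 genes were counted in each library, 15 of them in both, with Insig1 in Sun1_KO only and Fdft1 in Sun1_WT only. Of these 16, 11 in Sun1_KO and 12 in Sun1_WT were at least 1.5-fold higher in tumour-gated nuclei, against 32.5% of all genes in Sun1_KO and 32.5% in Sun1_WT, and 0 were that much lower, against 25.8% in Sun1_KO and 26.0% in Sun1_WT. Genes such as Sqle, with 26 myeloid UMIs in Sun1_KO and 25 in Sun1_WT, passed through their tumour level, so these counts are shaped by the rule and do not speak for the 31 genes. Scd1 differed most in Sun1_KO, at 186 CPM in tumour-gated and 18.5 CPM in myeloid-gated nuclei, a log2 ratio of 3.30 (2.79 to 3.92), with 2.91 in Sun1_WT. Fads2 had 2.07 in Sun1_KO and 3.66 in Sun1_WT, Elovl6 2.24 in Sun1_KO and 1.75 in Sun1_WT, and Sqle 1.99 in Sun1_KO and 2.43 in Sun1_WT. Fads1 had 0.036 (-0.27 to 0.37) in Sun1_KO and 0.93 (0.53 to 1.39) in Sun1_WT, so its levels in the 2 gates were close in Sun1_KO and apart in Sun1_WT.

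Tumour-gated nuclei were next ranked by the summed share of genes of 3 states, hypoxia (such as Car9 and Vegfa), S phase (such as Mcm5 and Pola1) and G2/M (such as Mki67 and Ccnb1), and the upper quartile was set against the lower quartile of each library, 341 nuclei a quartile in Sun1_KO and 636 in Sun1_WT. Sterol genes stood higher in the upper S phase quartile, with a log2 ratio for the sum of the 16 enzymes of 0.51 (0.44 to 0.59) in Sun1_KO and 0.63 (0.58 to 0.68) in Sun1_WT. In the upper hypoxia quartile that sum was lower, with -0.25 (-0.32 to -0.18) in Sun1_KO and -0.51 (-0.56 to -0.46) in Sun1_WT. The fatty acid sum was a little higher in both, 0.20 in Sun1_KO and 0.23 in Sun1_WT for S phase, and 0.20 in Sun1_KO and 0.083 in Sun1_WT for hypoxia. Scd2, the largest part of the fatty acid sum, was higher in the upper hypoxia quartile, while Fasn was lower. In the upper G2/M quartile the fatty acid sum was lower instead, with -0.16 (-0.20 to -0.11) in Sun1_KO and -0.050 (-0.086 to -0.013) in Sun1_WT. The sterol sum there was 0.089 (0.018 to 0.16) in Sun1_KO and 0.24 (0.19 to 0.29) in Sun1_WT. The S phase quartiles differed in depth, with medians of 19923 and 12809 UMIs in Sun1_KO and 21977.5 and 12126.5 UMIs in Sun1_WT from upper to lower. The G2/M quartiles did too, with 22572 and 13165 UMIs in Sun1_KO and 25554.5 and 14001.5 UMIs in Sun1_WT, and the part of depth was not tested.

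Single genes moved further than these sums. Acat2 had S phase log2 ratios of 1.44 in Sun1_KO and 1.18 in Sun1_WT, and Fads2 0.99 in Sun1_KO and 1.10 in Sun1_WT. Stard4 stood at 54.8 CPM in the upper and 20.03 CPM in the lower quartile of Sun1_KO, and at 62.0 and 22.0 CPM in Sun1_WT. Fdps had 0.61 (0.37 to 0.85) in Sun1_KO and 0.97 (0.84 to 1.11) in Sun1_WT. In the upper hypoxia quartile Scd2 was higher, by 0.48 (0.41 to 0.55) in Sun1_KO and 0.54 (0.49 to 0.60) in Sun1_WT, while Fasn was lower, with -0.39 (-0.60 to -0.17) in Sun1_KO and -0.97 (-1.16 to -0.79) in Sun1_WT. Elovl6 differed between the libraries in this contrast: it had 0.039 (-0.12 to 0.20) in Sun1_KO, with 120 CPM in the upper and 117 CPM in the lower quartile, and -1.03 (-1.20 to -0.86) in Sun1_WT, with 41.9 and 85.5 CPM. That difference between libraries has no replicate and was not tested.

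To set the genotypes side by side at like states, nuclei of both libraries were pooled, divided into quartiles, and the ratio was taken within each quartile. Fdps was lower in Sun1_KO in all 4 quartiles of each list, with log2 ratios from -1.20 to -0.68 for hypoxia, -1.07 to -0.57 for S phase and -1.14 to -0.64 for G2/M, and every interval lay below 0. Elovl6 was higher in Sun1_KO in every quartile, with intervals above 0, and its ratio went with the hypoxia quartile, at 0.51, 0.80, 0.94 and 1.29 from lowest to highest. Acaca (0.39 to 0.67) and Scd1 (0.33 to 0.62) also had intervals above 0 in every quartile of the 3 lists. The highest hypoxia quartile held 17.3% of Sun1_KO and 29.1% of Sun1_WT tumour-gated nuclei, and the lowest held 32.4% of Sun1_KO and 21.0% of Sun1_WT nuclei.

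**Figure D3:**
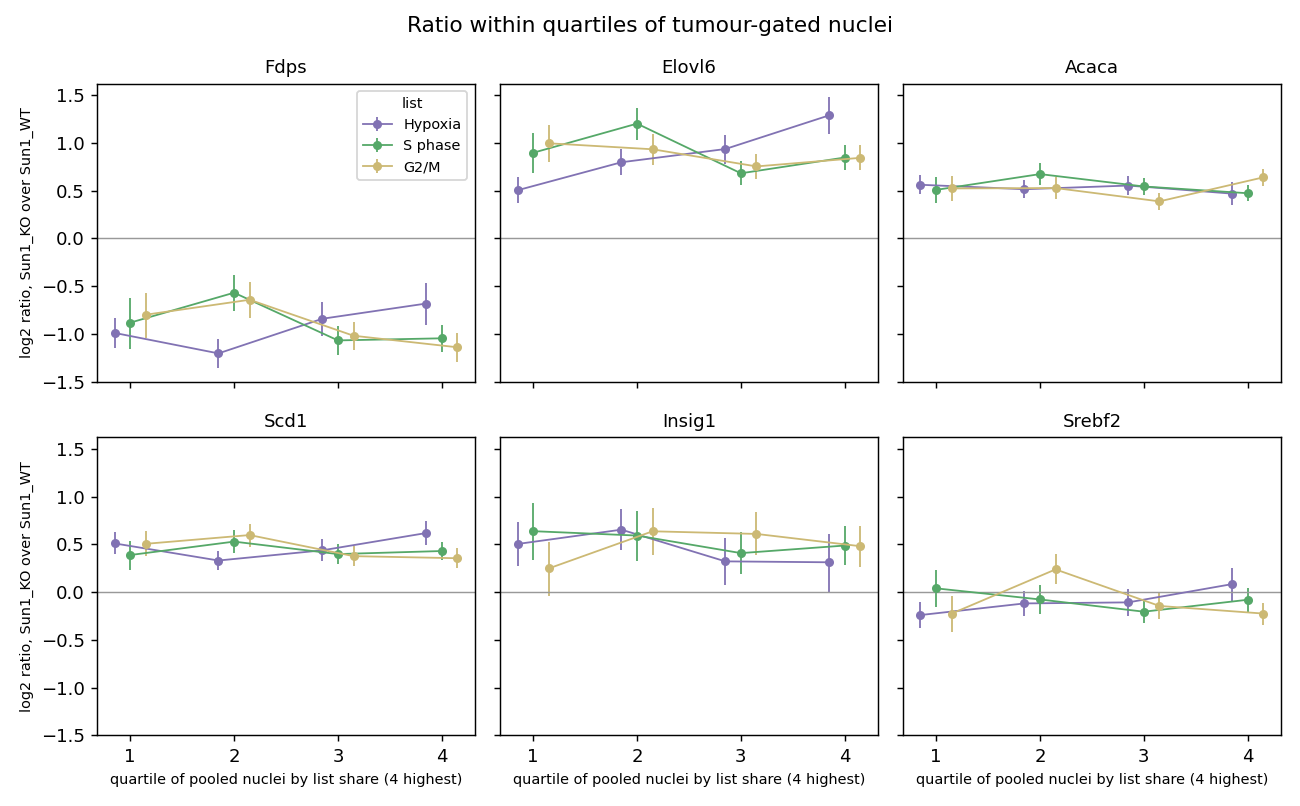
Log2 ratio, Sun1_KO over Sun1_WT, of 6 genes within quartiles of pooled tumour-gated nuclei ranked by hypoxia, S phase or G2/M genes, with exact 95% intervals for counting error as bars. Fdps lies below 0 in every quartile, Elovl6, Acaca and Scd1 lie above 0, and the Elovl6 ratio is 0.51 in the lowest and 1.29 in the highest hypoxia quartile.

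Clustering of tumour-gated nuclei gave 13 clusters, of which 6 drew over 90% of their nuclei from 1 library, and such a cluster may stand for that library, not a cell state. Taken by library and cluster, 15 groups had at least 50 nuclei. The sum of the 16 sterol enzymes was highest in cluster 1, led by genes such as Dtl and Mcm6, at 910 CPM in Sun1_KO and 952 CPM in Sun1_WT. It was lowest in cluster 5, led by P4ha2, Ankrd37 and Ndrg1, at 372 CPM in Sun1_KO and 294 CPM in Sun1_WT, and it was similarly low in cluster 0 of Sun1_KO (378 CPM) and cluster 12 of Sun1_WT (336 CPM). Both of these have Ogn among their leading genes, and cluster 12 also has the matrix genes Aspn, Omd and Dcn. Fdps ranged from 31.3 CPM in cluster 5 of Sun1_KO to 175 CPM in cluster 1 of Sun1_WT. Elovl6 ranged from 22.3 CPM in cluster 12 of Sun1_WT to 197 CPM in cluster 11 of Sun1_KO. It is among the leading genes of cluster 11, although the 31 genes were left out of the clustering. Acly was the steadiest of the 31 genes, at 87.0 to 128 CPM.

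In the 4 clusters with at least 50 nuclei of each library, Fdps was lower in Sun1_KO in all 4, with log2 ratios from -1.10 to -0.51 and 3 intervals below 0. Elovl6 (0.45 to 1.79), Acaca (0.37 to 0.96), Scd1 (0.46 to 0.67) and Scd2 (0.19 to 0.50) had intervals above 0 in all 4, beside all-gene medians of 0.089 to 0.15. The largest Elovl6 ratio fell in cluster 5, at 85.8 CPM in Sun1_KO and 24.8 CPM in Sun1_WT. The fatty acid sum was higher in Sun1_KO in all 4, by 0.25 to 0.57. The sterol sum had log2 ratios of -0.065, -0.17 and -0.16 in clusters 1, 3 and 4 and 0.34 in cluster 5. In clusters 1, 3 and 4 most or all of the lower sum lay in Fdps, which had -0.83, -1.10 and -1.09 there. Insig1 took both signs, from -0.90 in cluster 3 to 0.71 in cluster 4. Without clusters 0 and 12 the tumour gate held 1076 Sun1_KO and 2029 Sun1_WT nuclei, and Fdps had -0.93, Elovl6 0.86 and Acaca 0.57.

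**Figure D4:**
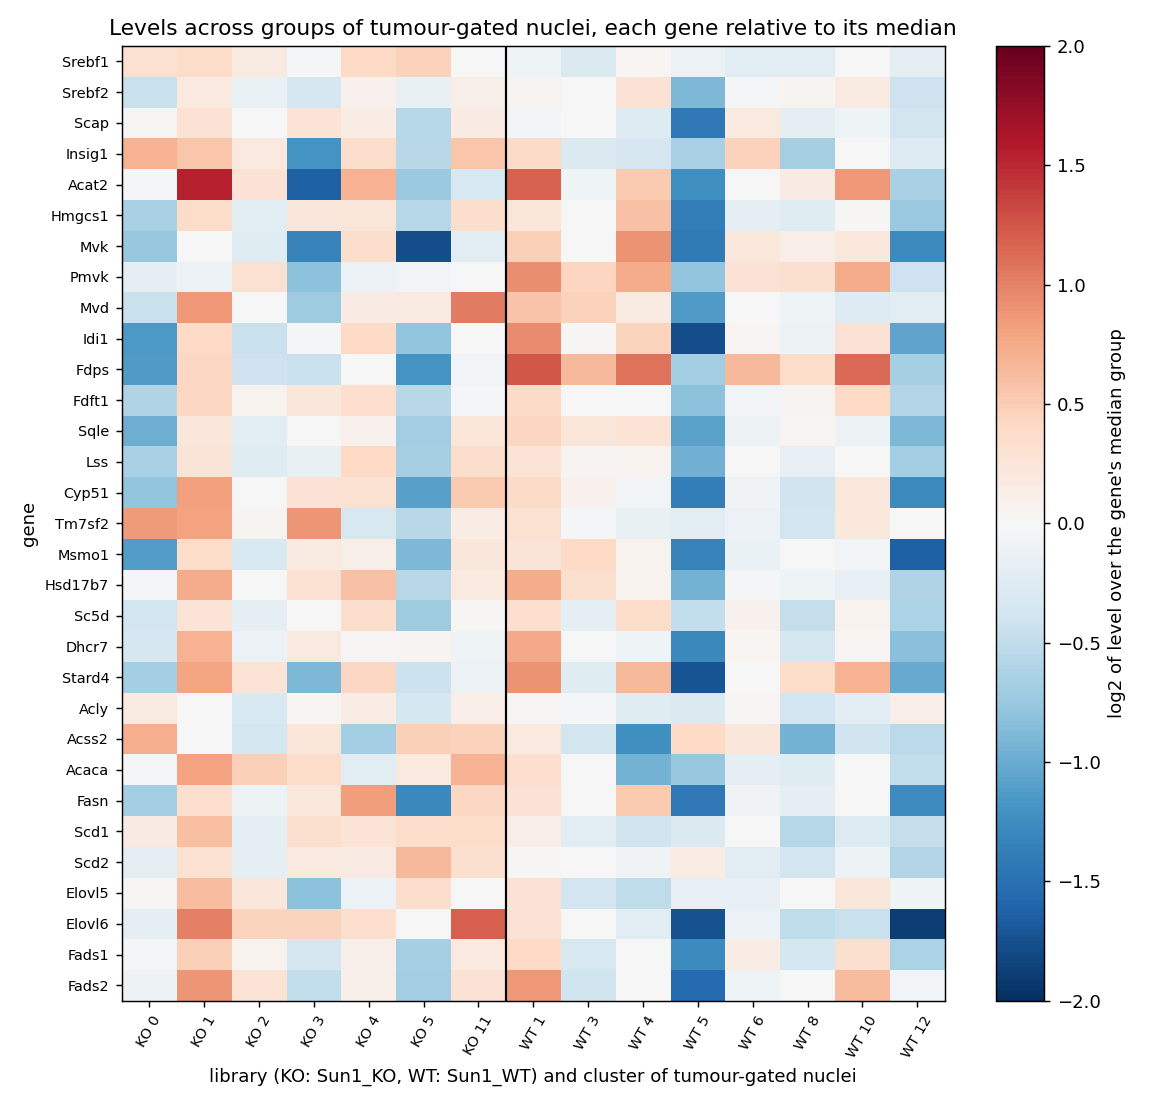
Level of each of the 31 genes in 15 groups of tumour-gated nuclei, 7 of Sun1_KO at left and 8 of Sun1_WT at right, as log2 of (CPM + 1) over the gene's median group, with red above and blue below. Most sterol genes are red in cluster 1 of both libraries and blue in cluster 5 of Sun1_WT, where their sum is 294 CPM, and Fdps is above its median group in 1 of 7 Sun1_KO and 6 of 8 Sun1_WT groups.

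Across these 15 groups most sterol enzymes varied together. Spearman correlations with the sterol sum, the gene's own level left out, were 0.93 for Idi1, 0.89 for Hmgcs1, 0.88 for Lss, 0.86 for Sqle and 0.75 for Fdps, beside a median of 0.086 over 8509 other genes with enough UMIs. Srebf2 had 0.85 and Srebf1 0.13. Fasn (0.86), Fads1 (0.85) and Fads2 (0.73) followed the sterol enzymes, whereas Acaca (0.32), Scd1 (0.27), Scd2 (0.25) and Acss2 (-0.35) did not. The 5 non-member genes most like the sterol sum were Cdca7 (0.93), Nsdhl (0.93), Akt1 (0.91), Cct8 (0.91) and Kdelr2 (0.90), and Nsdhl is a sterol decarboxylase, itself an enzyme of the pathway. The S phase genes had 0.68 and the hypoxia genes -0.49. Groups of 1 library share its preparation and depth, so these values describe only these 15 groups.

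The neighbouring pathways were read from 5 further lists. Of all 13076 genes compared in tumour-gated nuclei, 9.38% were at least 1.5-fold lower in Sun1_KO and 12.1% that much higher. Of 9 sterol sensing and remaining sterol enzyme genes compared in tumour-gated nuclei, 1 was at least 1.5-fold lower and 0 higher: Ebp, the sterol isomerase, stood at 18.1 CPM in Sun1_KO and 42.6 CPM in Sun1_WT, a log2 ratio of -1.24 (-1.39 to -1.09). Insig2 had -0.41, and Mbtps2, the site-2 protease that frees SREBP, had 0.49. Of 9 genes of non-sterol isoprenoids, which draw on the Fdps product, 0 passed 1.5-fold. Pdss1, which makes the ubiquinone tail, had 0.54 and Dhdds, which makes dolichol, 0.50, the highest of that list, and Rabggtb -0.26 and Coq2 -0.11 the lowest.

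Of 11 LXR and sterol handling genes compared, 3 were at least 1.5-fold lower and 0 higher in Sun1_KO tumour-gated nuclei. Of all genes compared there, 9.38% were that much lower and 12.1% higher, shares that also apply to the lists below. The sterol exporter Abcg1 stood at 5.55 CPM in Sun1_KO and 9.60 CPM in Sun1_WT, a log2 ratio of -0.79 (-1.08 to -0.51), and the lipoprotein receptor Vldlr at 80.5 CPM in Sun1_KO and 131 CPM in Sun1_WT, with -0.70 (-0.78 to -0.63). Npc2, the remaining one, is the lysosomal cholesterol binder and had -0.67, and Lpcat3 (0.43) and Scarb1 (0.30) were the highest. Of 18 genes of fatty acid activation and lipid assembly, 3 were lower and 1 higher. Mid1ip1, which promotes polymerisation of acetyl-CoA carboxylase, stood at 15.4 CPM in Sun1_KO and 35.1 CPM in Sun1_WT, with -1.19 (-1.36 to -1.03), and the others were Fads3 (-0.80), Dgat2 (-0.66) and, higher, Mlxip (0.63). Lpin1 had 0.57. Of 11 fatty acid oxidation genes, 1 was lower (Acadvl, -0.64) and 2 higher, Ppargc1a at 18.6 CPM in Sun1_KO and 9.35 CPM in Sun1_WT (0.99, 0.79 to 1.19) and the carnitine carrier Slc25a20 (0.65). Acadm had -0.36.

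In myeloid-gated nuclei, 10 LXR and sterol handling genes could be compared. Lrp1, an endocytic receptor, stood at 358 CPM in Sun1_KO and 730 CPM in Sun1_WT, a log2 ratio of -1.03 (-1.18 to -0.88), and the exporter Abca1 at 267 CPM in Sun1_KO and 398 CPM in Sun1_WT, with -0.58 (-0.76 to -0.40). Scarb1 (0.83) and Mylip (0.43) were the highest of the list. Erlin1 had 0.31 and Ebp -0.30 among the sterol sensing genes, and Pdss1 0.68 among 7 isoprenoid genes. Of 9 lipid assembly genes the fatty acid binder Fabp5 had -0.79 (-1.43 to -0.20), Tecr -0.53, Acsl5 0.31 and Acsl4 0.28. None of 5 oxidation genes passed 1.5-fold, where 4.96% of all genes compared in myeloid-gated nuclei were that much lower and 5.66% higher.

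Chromatin accessibility was read over each gene and 1 kb to either side, from 147471 merged regions of which 113805 had a peak in both libraries. None of the 31 loci differed by 1.5-fold in tumour-gated nuclei, where 12.3% of single regions did, and the median log2 ratio over the loci was -0.022. A locus sums 1 to 17 regions, whereas a single region needed only 100 counts over both libraries. That share is therefore not a like baseline for the loci. The lowest locus was Srebf2, at -0.42 (-0.46 to -0.38), and the highest Elovl6, at 0.20 (0.16 to 0.24). The 5 Mb to either side, with the locus left out, had a log2 ratio of -0.37 around Srebf2 and 0.21 around Elovl6, so both loci went with their surroundings. Fdps, whose transcript was lower in Sun1_KO, had a locus ratio of 0.14 (0.095 to 0.18) and a surrounding ratio of 0.17, and Pmvk had 0.20 and 0.17. These 3 genes, Fdps, Pmvk and Elovl6, lie on chromosome 3. Fdps and Pmvk lie close together there, so their surroundings largely overlap and are not independent values. Acaca had 0.024, Insig1 -0.090 and Scd1 -0.12, with transcript ratios above 0 in each. Accessibility at the locus and transcript level thus took opposite signs for Fdps, Pmvk, Insig1 and Scd1, and the same sign for Srebf2, Elovl6 and Acaca. Further genes, such as Srebf1 and Cyp51, also took opposite signs.

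In myeloid-gated nuclei, 0 of the 31 loci differed by 1.5-fold, where 6.90% of single regions did, again not a like baseline for summed loci. The Fads1 locus had 0.40 (0.24 to 0.56), the Fads2 locus 0.42 (0.089 to 0.76) and the Fdps locus -0.34 (-0.55 to -0.14), and their surroundings had 0.018, 0.022 and 0.019. Fads1 and Fads2 are neighbours on chromosome 19, so these are not independent values. Elovl5, with the highest transcript ratio among the genes compared, had 0.13 (-0.0037 to 0.27). Most nonzero counts in these tables are even numbers, 74.98% in Sun1_KO and 75.5% in Sun1_WT, so single counts are not independent and the intervals are too narrow.

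**Figure D5:**
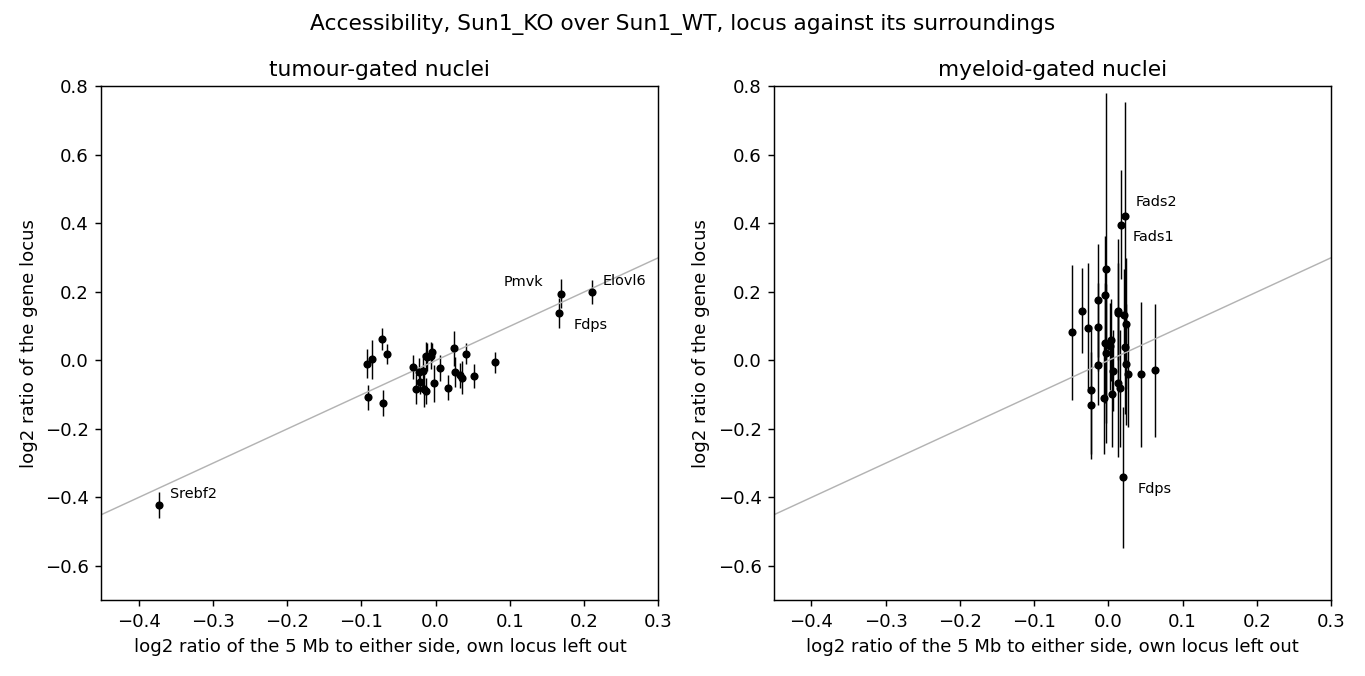
Log2 ratio of accessibility, Sun1_KO over Sun1_WT, at each of the 31 loci (vertical) against that of the 5 Mb to either side with the locus left out (horizontal), in tumour-gated and myeloid-gated nuclei, with 95% counting intervals as bars and a line of equal values. Srebf2 at -0.42 and Elovl6 at 0.20 lie near the line in tumour-gated nuclei, and Fads1 at 0.40 and Fdps at -0.34 lie off it in myeloid-gated nuclei.

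The authors' deposited table of DESeq2 Wald results holds 10156 rows and 30 of the 31 genes. Which nuclei entered it was not stated, and its direction was read from the counts: all 90 genes past 2-fold both there and in tumour-gated nuclei had the same sign as Sun1_KO over Sun1_WT. All 30 genes have an adjusted p under 0.05 in the authors' deposited table, 29 of them higher and Fdps lower, but so do 89.0% of all its genes, and its median log2 fold change over all genes is 0.59, beside 0.57 over the 30. The sign was the same as in the tumour-gated ratio for 21 of the 30. In the authors' deposited table Elovl6 has a log2 fold change of 1.26, Scd1 0.89, Insig1 0.88, Acaca 0.87 and Fdps -0.41. With 1 library per genotype, that table holds no measure of the spread between tumours.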

How the data were processed

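Nuclei of 2 tumour genotypes were measured by 10x multiome, 1 expression and 1 accessibility library each. The authors deposited raw UMI counts per gene and nucleus and raw counts per peak and nucleus. FastQC, Cell Ranger, Cell Ranger ARC, Seurat, Signac and build mm10 are named per the submitters' processing notes, without versions in the sources used here. The authors' deposited table holds, per the file headers, a mean normalized signal, a log2 fold change and its standard error, a Wald score, and a p-value and adjusted p-value from DESeq2, and 2 of its rows with a repeated name were left out.

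Nuclei passed with 500 or more UMIs, 300 or more genes and a mitochondrial share up to 20%, 2172 of 2404 in Sun1_KO and 3345 of 3455 in Sun1_WT. Tumour-gated nuclei had at least 10 tumour marker UMIs per 10000, at least 3 such UMIs and under 10 leukocyte marker UMIs per 10000. Myeloid-gated nuclei had at least 20 myeloid marker UMIs per 10000 from at least 3 markers, under 5 tumour marker UMIs per 10000, and other leukocyte markers at no more than 20% of the myeloid ones. No doublet caller was run, and these limits reduce nuclei with mixed markers but do not remove them. The stricter tumour gate, with no myeloid or pan-leukocyte marker UMI, kept 205 Sun1_KO and 533 Sun1_WT nuclei. In the myeloid gate, endothelial, dendritic cell and fibroblast markers were not limited. UMIs were summed per gate and library and divided by the sum without mitochondrial genes. Genes with at least 100 UMIs over both libraries were compared, and 1.5-fold was the size counted. Shares of nuclei were taken after thinning each nucleus to 1000 UMIs. Clusters used 2000 variable genes, 30 components, 15 neighbours and resolution 1, with the 31 genes left out. Peaks of both libraries that overlapped by at least 1 base were merged. The scripts that sum, scale and compare were tested on simulated data.

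The members and lists were chosen with earlier results of these data known, and the gate limits after seeing the data. Named in full were the 6 members per gate whose interval bound nearest 0 was farthest from it, and the regulators. From each other list up to 2 highest and 2 lowest genes were named, and the 5 genes most like the sterol sum. Some results that this rule covers are not reported here. Dgat2, Acadvl and other genes past 1.5-fold outside that rule were named after their values were seen. Alternatives were TMM and median-of-ratios scaling, another denominator, other UMI minimums, a larger pseudocount, thinning, a stricter and a looser gate, and binarised accessibility. Python 3.11.15, numpy 2.4.6, pandas 2.3.3, scipy 1.17.1, scanpy 1.11.5, matplotlib 3.10.9, R 4.3.3 and edgeR 4.0.16 (for TMM factors only) were used.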

Additional observations from a re-analysis of the deposited data

Results flagged for a closer look

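Msmo1 was singled out because its ratio took opposite signs in the 2 gates, with an interval on its own side of 0 in each. In tumour-gated nuclei its log2 ratio, Sun1_KO over Sun1_WT, was -0.11, from 2138 UMIs in Sun1_KO and 4241 UMIs in Sun1_WT. In myeloid-gated nuclei it was 0.66, from 65 UMIs in Sun1_KO and 47 UMIs in Sun1_WT. The difference between the gates was not tested, since each genotype is 1 library. Within tertiles of tumour-gated nuclei by depth, the Msmo1 ratio also took both signs, at 0.29, 0.070 and -0.30 from shallow to deep.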

How the results depend on the processing

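Of 324 values recomputed under alternatives, 241 stayed within their counting spread or within 1.5 times their count and 83 moved. Single-gene ratios were recomputed only for the genes named in full and the regulators. Among these 196 values, 5 took the other sign. They were 2 of Scap in tumour-gated nuclei and 1 each of Insig1, Scap and Srebf2 in thinned myeloid-gated nuclei, which kept few UMIs. Sign changes of the other members are not in that count. With TMM factors, fatty acid genes above 0 in tumour-gated nuclei fell from 10 to 4, and early mevalonate genes from 3 to 0. In tumour-gated nuclei the median of the 31 genes was 0.075 as reported, -0.13 with TMM factors, -0.071 with median-of-ratios factors and 0.27 after thinning to 1000 UMIs, when 21 genes were left. Its sign thus turned with TMM and with median-of-ratios factors. Minus the all-gene median it was -0.072 as reported and 0.14 after thinning, again with the other sign. Genes at least 1.5-fold lower numbered 2 with TMM factors and 2 after thinning, and genes that much higher 5 after thinning. Of all genes 16.4% were that much lower with TMM factors, and 8.55% lower and 9.61% higher after thinning, so the members' share, below that of all genes as reported, was above it after thinning in the higher direction. In myeloid-gated nuclei 3 were lower and 11 higher of 31 with no UMI minimum, where 19.0% of all genes were lower and 21.8% higher, and 1 of 1 was higher with a minimum of 300, where 3.09% of all genes were. No myeloid value is given after thinning, because 0 of the 31 genes reached the minimum. The median locus accessibility in tumour-gated nuclei was -0.080 with binarised counts, beside -0.022. Fdps ranged from -1.19 to -0.66 and Elovl6 from 0.62 to 0.90 over the alternatives, Fdps nearest 0 in the stricter gate, which kept 205 Sun1_KO nuclei. No paired analysis was possible because each genotype has 1 expression library. The cause of each shift was not tested. The gate without Hmga2 and the one without the clusters led by Ogn were chosen after seeing the data.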
